A study of Homo sapiens
Mus musculus and Homo sapiens with 12 samples.

Results

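The genes described here are 3 genes for replacement histones and 1 gene for a core histone of a largely replication-dependent family. They are H3-3A and H3-3B (formerly H3F3A and H3F3B), which both encode histone H3.3, H2AZ1 (formerly H2AFZ), which encodes H2A.Z, and H2BC21 (formerly HIST2H2BE), a core H2B. They were chosen by name, as 4 of the 7164 human genes that at least 1 deposited table covered. Each gene's level is the sum of its human RefSeq coding transcripts.

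The study fused cells and followed the human transcripts by sequencing of polyadenylated RNA in 12 samples. Heterokaryons were made by fusing mouse embryonic stem cells of the D3 line with MRC5 cells, human fetal lung fibroblasts, and collected by cell sorting at day 1, day 2 and day 3 after fusion (2 samples each). A heterokaryon is a transient fused cell in which the nuclei of both parents stay separate. The homokaryon sample came from human fibroblasts fused with one another (1 sample). In co-culture, both cell types grew together without fusion and their RNA was pooled (2 samples), and unfused fibroblasts were the starting cells (3 samples). All comparisons below are of values assigned to human transcripts, with the mouse cells as the fusion or culture partner. The part of mouse reads in these values was not tested.

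Nucleosomes wrap DNA around an octamer of core histones, and most core histone genes are switched on during DNA replication, when new chromatin is built. Their transcripts usually end in a stem-loop instead of a poly(A) tail. Replacement histones are made throughout the cell cycle from polyadenylated transcripts: H3.3 is placed at active genes, enhancers and telomeres by dedicated chaperones, and H2A.Z is exchanged into nucleosomes that flank transcription start sites.

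H3-3A and H3-3B encode the same protein from different coding sequences. In the GENCODE 29 transcripts (GRCh38), both coding sequences are 411 bases long and differ at 88 positions, which leaves 78.6% identity. Of these differences, 77 fall at the third base of a codon, and the longest stretch that both share is 14 bases. The first 120 bases, in which the 24 differing bases are in capitals, read 5′ to 3′ as follows.
H3-3A: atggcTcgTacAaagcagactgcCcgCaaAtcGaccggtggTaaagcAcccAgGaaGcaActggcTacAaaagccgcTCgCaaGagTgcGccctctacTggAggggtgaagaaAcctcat
H3-3B: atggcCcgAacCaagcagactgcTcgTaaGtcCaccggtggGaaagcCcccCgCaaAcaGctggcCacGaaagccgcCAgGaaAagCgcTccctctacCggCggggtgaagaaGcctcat

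H2BC21 carries both kinds of transcript end, which matters here because the libraries were made from polyadenylated RNA. Its single-exon transcript (chr1:149884459-149886652, minus strand, GRCh38) holds a match to the histone stem-loop motif (searched as GGC, any base, CTTTT, any base, AG, any base, GCC) 57 bases after the stop codon, and 1729 further bases follow the match. In the lines below, capitals mark the stem-loop match and the AATAAA hexamer, the sequence that most often directs polyadenylation. The lines named transcript end stop before the last base. The hexamer starts 24 bases from the end in H2BC21, and 20 in H3-3B and H2AZ1.
H2BC21 stem-loop region: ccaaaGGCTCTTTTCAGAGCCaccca
H2BC21 transcript end: gttattAATAAAgttaccaattaa
H3-3B transcript end: gactaaAATAAAatttttgaagtt
H2AZ1 transcript end: aagttcAATAAAggtcatatccca

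The stem-loop motif, searched on the transcript strand, was present in the transcripts of 34 of 19644 coding genes (0.173%), of which 31 were among the 71 genes with a HIST symbol in that annotation. None of the transcripts of H3-3A, H3-3B or H2AZ1 held it. The AATAAA hexamer lay in the last 40 bases of all the transcripts but that of H3-3A. The other loci, all in GRCh38, are chr1:226062678-226071999 on the plus strand for H3-3A (4 exons), chr17:75776434-75779779 on the minus strand for H3-3B (4 exons) and chr4:99948088-99950388 on the minus strand for H2AZ1 (5 exons).

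The deposited tables give 1 expression value per transcript. They do not state a unit, so levels are compared between libraries and not between genes, and the sequencing depth is unknown. Each usable table stops partway through the accession order, which set how many libraries cover a gene: 2411 to 7164 genes were covered per library. H3-3A, H2AZ1 and H2BC21 were covered in 10 libraries, and H3-3B in 5, which are those of heterokaryon day 1, homokaryon and co-culture. Only replicate 2 of the unfused fibroblasts covers any of these histones. The unfused fibroblasts are thus described by 1 library, and no test against them is reported for these genes. Of 12 fibroblast markers, 8 were covered in common, and their summed level ran between 5274 and 8647 in the heterokaryons, was 17214 in the homokaryon, 7373 and 7400 in co-culture and 8432 in the unfused fibroblasts. SOX2, the 1 pluripotency marker covered throughout these libraries, was absent from all of their tables and taken as 0. In bulk RNA, fewer cells expressing a gene and less RNA per cell cannot be told apart. How reads that match both the human and the mouse genome were assigned was not given in the sources read. H3.3 and H2A.Z are highly conserved between the species, and the part of mouse reads in the values was not tested.

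At day 1, H3-3B and H2AZ1 were higher in heterokaryons than in co-culture, H2BC21 was lower, and H3-3A did not pass the test. Groups were compared with limma on log2 of the value plus 1 and a difference was called where the adjusted p (Benjamini-Hochberg) was under 0.05, which called 10.7% of the 3557 genes tested (6.18% higher and 4.55% lower). Thus 2 of the 4 histone genes were called higher and 1 lower. All 4 had heterokaryon libraries that did not overlap the co-culture libraries, which also held for 54.2% of all genes tested. The median log2 fold change was 0.96 over the 4 genes and 0.00 over all genes tested. Whether the replicates come from separate cultures is not stated, so each p-value reflects only how much these samples vary.

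**Figure D1:**
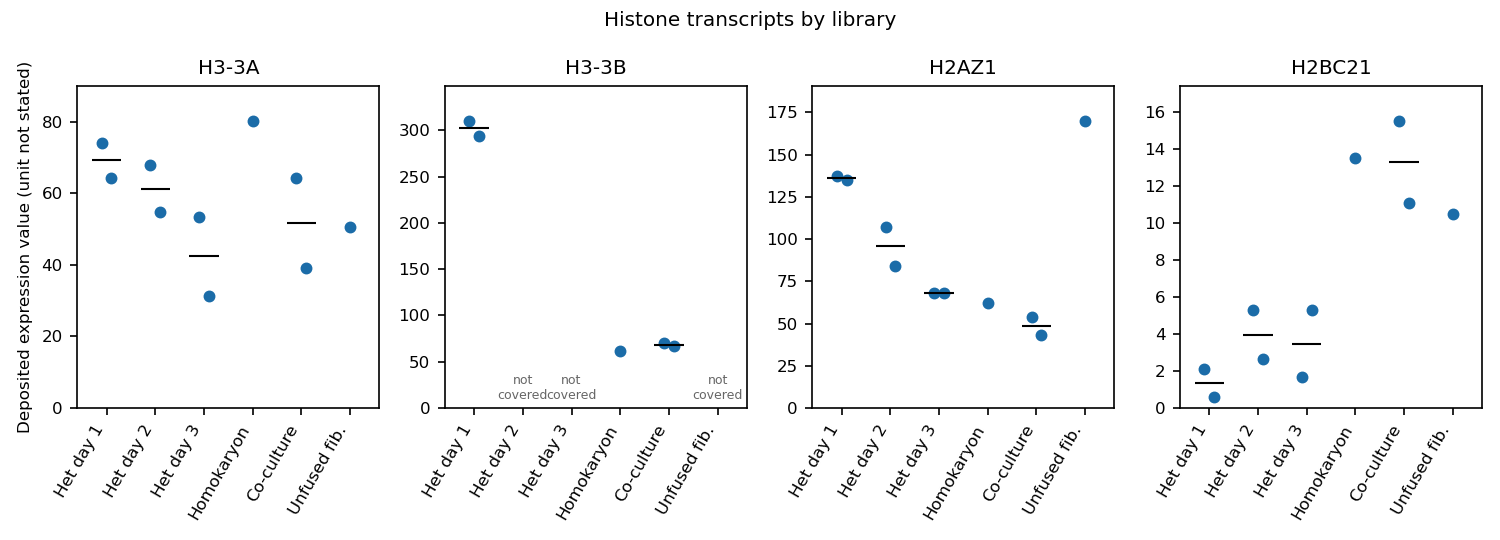
Deposited expression value of each histone gene (vertical axes from 0, unit not stated) in every library that covers it, by group; points are libraries and horizontal lines are means of 2 libraries. The day 1 points of H3-3B stand far above the homokaryon and co-culture points, H2AZ1 is lower at each later day, and all 6 heterokaryon points of H2BC21 lie below those of the other groups.

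Of the 2 genes for H3.3, H3-3B was called at day 1 and H3-3A was not. H3-3B stood at 311 and 294 in the day 1 heterokaryons, against 70.3 and 66.6 in co-culture. The homokaryon, which holds no mouse cell, had 61.8. Both day 1 libraries were thus over 4 times as high as any other library that covers the gene, and co-culture and homokaryon lay close together. Relative to co-culture, the ratio of the means was 4.42 and the log2 fold change was 2.13 ± 0.23 (SE, n = 2 each, adjusted p = 0.00706). Relative to the homokaryon, the day 1 mean was 4.89 times as high, with no test because there is 1 homokaryon library. The call against co-culture ended when either co-culture library was left out (adjusted p = 0.0721 without replicate 1 and 0.0686 without replicate 2), while the log2 fold change stayed between 2.09 and 2.17 over the 4 such fits. Day 2, day 3 and the unfused fibroblasts are not covered, so the later course of H3-3B was not analysed here.

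H3-3A, which makes the same protein, stood at 74.1 and 64.3 in the day 1 heterokaryons, against 64.2 and 39.2 in co-culture. The lower day 1 library and the higher co-culture library nearly met. The log2 fold change was 0.45 ± 0.36 (SE, n = 2 each, adjusted p = 0.477). At day 2 the heterokaryon values were 68.0 and 54.7, and at day 3 they were 53.5 and 31.3, so both later days overlapped co-culture. Their log2 fold changes against co-culture were 0.28 ± 0.36 (adjusted p = 0.681) and −0.29 ± 0.36 (adjusted p = 0.745), both SE with n = 2 each. The highest of the 10 libraries was the homokaryon at 80.4, and the unfused fibroblast library, at 50.7, lay inside the range of the co-culture values. From highest to lowest library, H3-3A spanned 2.57-fold. Neither later direction is firm. At day 2 it turned to −0.085 with upper quartile scaling and to −0.072 without co-culture replicate 2, and at day 3 to 0.061 without co-culture replicate 1 and to 0.090 without heterokaryon day 3 replicate 2.

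Within a library, the 2 genes can be set against each other as a ratio whose change between groups does not depend on transcript length or library scale. H3-3B over H3-3A was 4.19 and 4.57 in the day 1 heterokaryons, 0.769 in the homokaryon, and 1.09 and 1.70 in co-culture. The day 1 and co-culture ratios did not overlap. Their mean log2 ratios were 2.13 ± 0.09 and 0.45 ± 0.45 (SD, n = 2 each), a difference of 1.68. A two-sided exact permutation test gave p = 0.333. That is the smallest value that 2 against 2 libraries allow, so the test could not decide whether the 2 genes differed in their response.

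**Figure D2:**
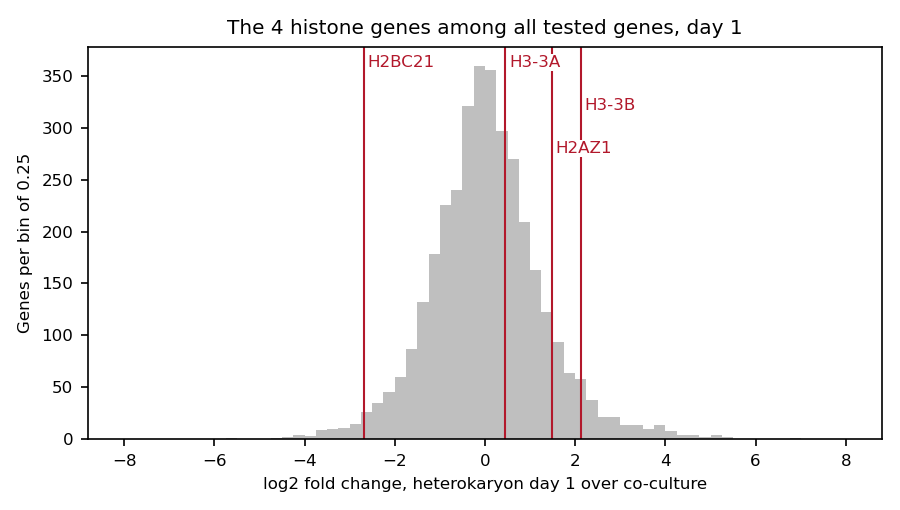
Histogram of log2 fold changes between heterokaryon day 1 and co-culture for all 3557 genes tested (horizontal axis; genes per bin of 0.25 on the vertical axis), with a vertical line at each histone gene. H3-3B and H2AZ1 lie above 94.8% and 89.3% of the genes, H3-3A lies near the middle of the histogram, and H2BC21 lies above 1.66%.

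H2AZ1 was high at day 1 and lower at each later day. Its heterokaryon values were 137 and 135 (day 1), 107 and 84.2 (day 2), and 68.4 and 68.3 (day 3), compared with 53.8 and 43.3 in co-culture. The libraries of these 4 groups did not overlap in any pair, and the homokaryon, at 61.9, lay between day 3 and co-culture. At day 1 the log2 fold change against co-culture was 1.48 ± 0.24 (SE, n = 2 each, adjusted p = 0.0122), a ratio of the means of 2.80. The day 1 call ended without co-culture replicate 1 (adjusted p = 0.0721) or replicate 2 (adjusted p = 0.111).

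At day 2 the log2 fold change of H2AZ1 against co-culture was 0.96 ± 0.24 (SE, n = 2 each, adjusted p = 0.0455). Its libraries lay apart from co-culture at day 2 and day 3, as did those of 60.8% and 46.9% of the genes tested. It was the 1 gene called at day 2 of the 3 covered histone genes, beside 10.2% of the 2426 genes tested, and was called higher, as were 6.51% of them. The median gene was 0.29 higher at day 2 on this log2 scale, and with upper quartile scaling, which brings that median to 0.00, H2AZ1 was at 0.60 (adjusted p = 0.216). The day 2 call also ended in all 4 fits that left out 1 library (adjusted p from 0.119 to 0.257) and in 6 of 9 other settings, that scaling included. At day 3 the log2 fold change was 0.49 ± 0.24 (SE, n = 2 each, adjusted p = 0.340), and 0 of the 3 covered genes were called by limma (1 at an unadjusted p under 0.05), beside 3.54% of the 2992 genes tested.

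Between heterokaryon days, no step of H2AZ1 passed the test. The log2 fold change was −0.51 for day 2 against day 1 (adjusted p = 0.309), −0.47 for day 3 against day 2 (adjusted p = 0.672) and −0.98 for day 3 against day 1 (adjusted p = 0.0894), each with an SE of 0.24 and n = 2 each. Few genes passed in these comparisons, at 0.289%, 0% and 1.34% of those tested (by limma, 0 genes for day 3 against day 2, where 194 had an unadjusted p under 0.05). Libraries without overlap, as H2AZ1 had in all 3, were found for 47.8%, 35.4% and 40.8% of them. The other histone genes with values on all 3 days, H2BC21 and H3-3A, also had no call between days, with adjusted p from 0.326 to 0.946.

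The unfused fibroblasts did not share the low H2AZ1 level of the unfused co-culture. Their 1 library that covers the gene held 170.2, the highest of the 10 libraries. It was 3.50 times the co-culture mean, and the day 1 heterokaryon mean was 0.799 of it. The homokaryon stood at 0.364 of the same fibroblast library. The direction of the day 1 difference in H2AZ1 thus depends on which unfused cells it is set against: higher than co-culture, and lower than this fibroblast library. With 1 library, the second has no replicate check.

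In polyadenylated RNA, H2BC21, the core H2B gene, went the other way. Transcripts that end at its stem-loop would be missed, so a lower value here does not show that the gene was lowered. Its heterokaryon values were 2.09 and 0.574 (day 1), 5.29 and 2.64 (day 2), and 1.68 and 5.27 (day 3), compared with 15.5 and 11.1 in co-culture. The homokaryon had 13.5 and the unfused fibroblast library 10.5. The day 1 values lie near 1, the lowest level that the filter of the test counted. All 6 heterokaryon libraries were lower than all 4 other libraries, and the 3 heterokaryon days overlapped or nearly met. The share of all genes split in this way was not computed. Against co-culture alone, heterokaryon libraries did not overlap for 54.2%, 60.8% and 46.9% of the genes tested at day 1, day 2 and day 3. The log2 fold change against co-culture was −2.68 ± 0.65 at day 1 (SE, n = 2 each, adjusted p = 0.0405), lower than that of all but 1.66% of the genes tested. It was −1.56 ± 0.65 at day 2 (adjusted p = 0.181) and −1.78 ± 0.65 at day 3 (adjusted p = 0.194), so the later days did not pass. The day 1 call lies close to the threshold and ended in 6 of 9 other settings and in 3 of the 4 fits that left out 1 library. Adjusted p was 0.216 without co-culture replicate 1, 0.162 without co-culture replicate 2 and 0.0990 without heterokaryon day 1 replicate 2, and the direction was the same in all of these fits.

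**Figure D3:**
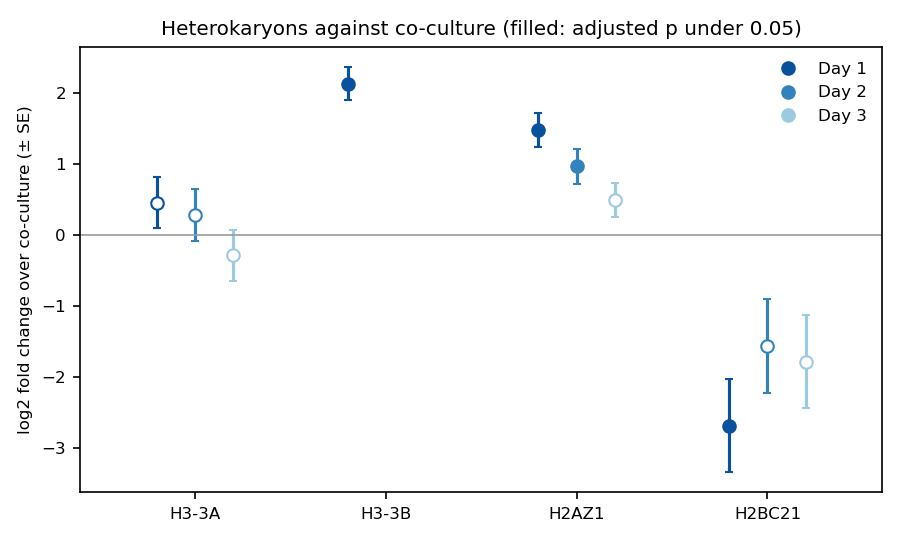
Log2 fold change of each histone gene between heterokaryons and co-culture at day 1, day 2 and day 3 (vertical axis; bars are ± SE of the limma fit, n = 2 libraries each), with filled points for an adjusted p under 0.05. H2AZ1 runs through 1.48, 0.96 and 0.49, H2BC21 stays below 0 on all days, and H3-3B has a day 1 value only.

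Other histone genes were examined by lists. Of 8 other replacement and linker histones, 2 could be tested. CENPA, the H3 variant of centromeres, rose at day 1 (log2 fold change 3.92 ± 0.50, SE, n = 2 each, adjusted p = 0.0049) and day 2 (3.12 ± 0.50, adjusted p = 0.00954). Its values were 15.3 and 13.0 (day 1), 8.13 and 7.23 (day 2), and 2.01 and 3.28 (day 3), while it is absent from the homokaryon and both co-culture tables, where it was taken as 0, and the unfused fibroblast library had 4.84. H2AX, whose product is phosphorylated at DNA breaks, measured 65.8 and 69.4 (day 1), 5.90 and 15.8 (day 2), and 10.8 and 4.04 (day 3), compared with 16.0 and 15.4 in co-culture. The homokaryon had 15.1 and the unfused fibroblast library 41.2. H2AX at day 1 just missed the threshold against co-culture (log2 fold change 2.04 ± 0.55, adjusted p = 0.0526), and it fell between day 1 and day 3 (day 3 against day 1, log2 fold change −3.15 ± 0.55, adjusted p = 0.0463). The linker histone gene H1-10 stood at 193 and 265 in the day 1 heterokaryons, against 21.2 in the 1 co-culture library that covers it, and was not tested.

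Of the 68 replication-dependent histone genes listed, which leave out H2BC21, 50 were covered in the day 1 comparison. Of these, 31 were absent from all 4 tables and taken as 0. Such transcripts usually lack a poly(A) tail, and the libraries were made from polyadenylated RNA. A 0 or a low value here therefore does not show that a gene is silent or lowered. Of the 15 tested, limma called 0 (1 at an unadjusted p under 0.05), with a median log2 fold change of −0.89 beside 0.00 over all genes. At day 2 and day 3, 14 were tested and 0 called, with 0 and 3 at an unadjusted p under 0.05 and medians of 0.12 and 1.10. The smallest adjusted p at day 1 belonged to H2AC19 (0.154), whose values were 0.184 and 1.72 (day 1), 2.17 and 7.17 (day 2), and 11.6 and 26.3 (day 3), compared with 5.66 and 3.77 in co-culture. H2AC18 has the same values as H2AC19 wherever both are covered, and H4C14 the same as H4C15, so the tables do not tell these copies apart.

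Few genes for the chaperones that deposit H3.3 and H2A.Z could be tested. Of the 5 tested H3.3 chaperone genes, 1 was called at day 1, beside 10.7% of all genes tested. This was UBN1, a subunit of the HIRA complex, which was higher than in co-culture. It measured 19.3 and 39.6 (day 1), 28.1 and 13.9 (day 2), and 11.6 and 10.4 (day 3), compared with 6.54 and 7.29 in co-culture. Its day 1 log2 fold change was 1.86 ± 0.47 (SE, n = 2 each, adjusted p = 0.0386). The homokaryon had 8.48. Unfused fibroblast replicates 1 and 2 had 13.4 and 15.3, which lie above co-culture and below both day 1 values. Replicate 1 differs from the other usable libraries: of its 17527 deposited values, 5332 belong to human coding transcripts and 12195 do not. HIRA, the subunit that names the complex, had 5.66 and 8.34 in the day 1 libraries, compared with 20.8 and 15.0 in co-culture, and did not pass (log2 fold change −1.24 ± 0.44, adjusted p = 0.112). DAXX, the H3.3 chaperone of telomeric and other repeat DNA, was at 43.1 and 38.2 in the day 1 libraries, compared with 52.4 and 52.0 in co-culture (adjusted p = 0.444). The list's median log2 fold change was 0.32. Of the genes for H2A.Z exchange, limma called 0 of the 2 that could be tested (0 at an unadjusted p under 0.05), TRRAP and RUVBL1, with log2 fold changes of −0.61 and −0.83.

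Among general histone chaperones, 1 of 8 tested genes was called at day 1, beside 10.7% of all genes tested. MCM2, a subunit of the replicative helicase that also binds H3 and H4, stood at 31.0 and 37.1 in the day 1 libraries, compared with 6.98 and 5.03 in co-culture (log2 fold change 2.33 ± 0.43, SE, n = 2 each, adjusted p = 0.0209). CHAF1A and CHAF1B, of the complex that deposits histones behind replication forks, did not pass, with log2 fold changes of 1.73 (adjusted p = 0.0947) and 1.83 (adjusted p = 0.186). Histone mRNA processing genes gave 0 limma calls of 2 tested, and the ubiquitin ligase and reader list 0 of 1, each with 0 at an unadjusted p under 0.05. At day 2 and day 3, limma called 0 genes of these 5 chaperone, exchange, processing and ubiquitin lists against co-culture; at an unadjusted p under 0.05 there was 1 at day 2, in the H3.3 chaperone list, and 0 at day 3.

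Of 15 listed genes of S phase, 9 were covered in the day 1 comparison, and 2 of these were absent from all 4 tables and taken as 0. Of the 7 tested, 4 were called higher at day 1, beside 6.18% of all genes tested, and 0 lower. The list had a median log2 fold change of 2.75 beside 0.00 over all genes. TOP2A, a topoisomerase of dividing cells, measured 44.1 and 30.8 (day 1), 11.8 and 15.5 (day 2), and 2.80 and 3.27 (day 3), compared with 1.49 and 1.71 in co-culture. CCNA2 (cyclin A2), RRM2 (a ribonucleotide reductase subunit) and MKI67 (the Ki-67 antigen) rose by log2 fold changes of 4.27, 2.85 and 2.75 (adjusted p = 0.00519, 0.0188 and 0.0265). The 1 unfused fibroblast library that covers the histones was not uniformly low for these genes. It held 28.8 for MKI67, inside the day 1 range of 11.9 to 38.2, and 13.2 for RRM2, near the day 1 values of 15.6 and 17.2. For TOP2A it held 8.54, and for CCNA2 3.53, below the day 1 values of 23.2 and 14.4. TOP2A and CCNA2 were also called at day 2 (log2 fold changes 2.48 and 2.24). At day 3, limma called 0 of the 5 tested (0 at an unadjusted p under 0.05), and TOP2A, CCNA2 and RRM2 fell in day 3 against day 1. The part of the S phase genes in the histone results was not tested.

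**Figure D4:**
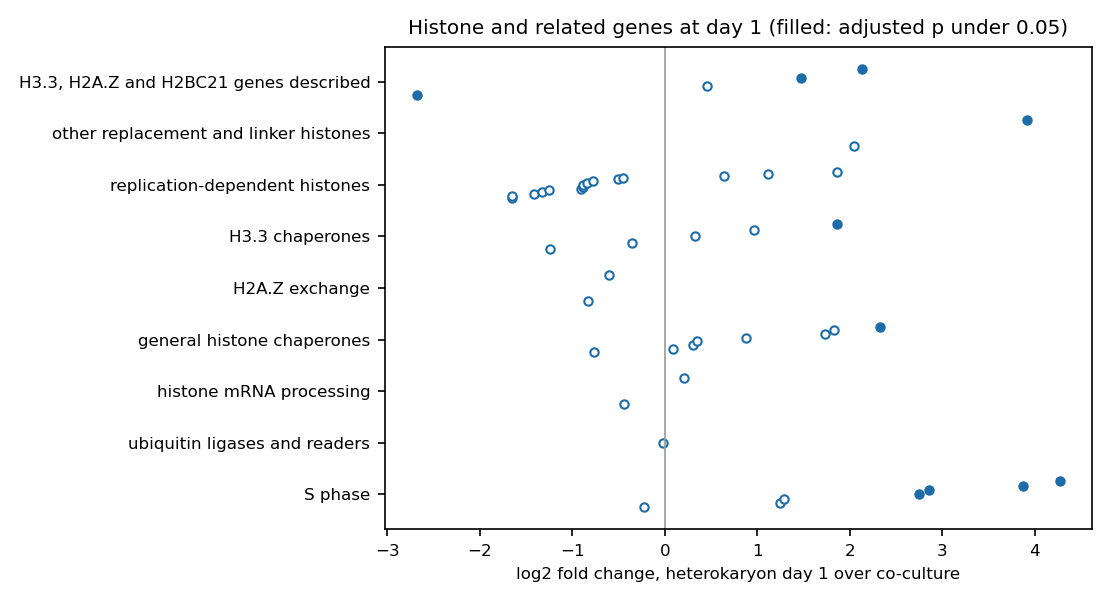
Log2 fold change between heterokaryon day 1 and co-culture (horizontal axis) for every tested gene of each list (rows); 1 point is 1 gene, and filled points have an adjusted p under 0.05. The described histones hold 3 filled points and the S phase genes 4, and the replication-dependent histones, which include 2 pairs of copies with equal values, hold none.

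Markers of another cell type also differed between the groups. The summed level of the 4 epithelial markers covered in common (EPCAM, KRT8, KRT19 and CLDN4, of 6 listed) was 109 and 154 in the day 1 heterokaryons and between 281 and 595 on the later days, against 16.7 in the homokaryon, 5.94 and 20.3 in co-culture and 7.98 in the unfused fibroblasts. KRT8 and KRT19 made up most of these sums, while EPCAM was absent, and taken as 0, in 2 of the 6 heterokaryon libraries and in both co-culture libraries, and at most 3.33 elsewhere. Summed endothelial markers reached at most 24.8, in the homokaryon, and haematopoietic markers at most 4.15. The part of the epithelial markers in the histone results was not tested.

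The genes whose values ran most like those of each histone were found over the 8 libraries of heterokaryons and co-culture, among 1195 tested genes of the upper 50% by mean level that all 8 cover, by Pearson's r of log2(value + 1). These are descriptions over libraries that share their groups. For H2AZ1 they were KIFC1 (r = 0.984), a kinesin of the mitotic spindle, COXFA4 (0.975), HMGB2 (0.972), a chromatin protein of proliferating cells, CKS1B (0.956), a cyclin-dependent kinase subunit, and PTMA (0.953), the precursor of prothymosin alpha. KIFC1 means were 65.7 at day 1, 24.3 at day 2 and 8.57 at day 3, against 4.53 in co-culture, and HMGB2 means were 138, 76.6 and 26.5, against 10.4 in co-culture. Like H2AZ1, both were lower at each later day and lowest in co-culture, an order that their selection by likeness to H2AZ1 favours.

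**Figure D5:**
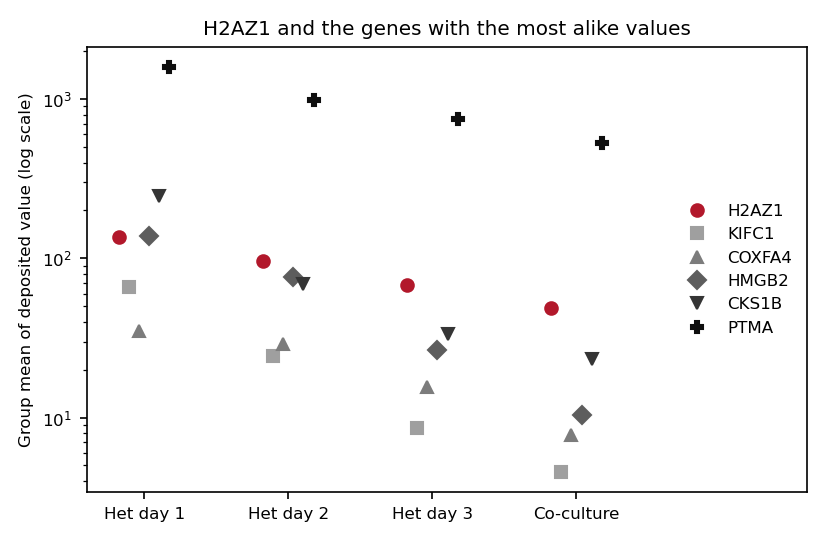
Group means (2 libraries each, log scale on the vertical axis, deposited values) of H2AZ1 and the 5 genes with the highest correlation to it, for heterokaryon days 1 to 3 and co-culture. All 6 genes are highest at day 1 and lowest in co-culture, with KIFC1 between 65.7 and 4.53. The 5 genes were selected for this likeness in the same libraries.

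For H3-3A the most alike genes were ATP5F1B (r = 0.924), a subunit of ATP synthase, the ribosomal protein genes RPS15A (0.921) and RPL17 (0.912), the importin gene KPNB1 (0.889) and MTRNR2L2 (0.888). RPS15A means were 1291 at day 1, 982 at day 2 and 469 at day 3, against 667 in co-culture. For H2BC21 they included NALF1 (r = 0.945), INSC (0.940), ADCY9 (0.936), an adenylate cyclase gene, and TBC1D25 (0.927). INSC means were 1.35 at day 1, 3.21 at day 2 and 3.61 at day 3, against 33.6 in co-culture. H3-3B is covered in too few libraries for this measure.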

How the data were processed

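PolyA RNA was sequenced from 12 samples. The authors' deposited tables hold 1 signal per transcript accession, in a unit not stated. Per the submitters' processing notes the genome builds are hg19 and mm10; the aligner and the assignment of reads to species are not given in the sources used here. Of 12 tables, 11 were used; that of unfused fibroblast replicate 3 holds no accession of the human RefSeq table. Each used table has 10000 distinct values, no 0 and an end in accession order. A human coding transcript missing before that end was taken as 0, and past it as not covered. Transcripts were summed per gene with the RefSeq table; 121 retired accessions were named with GENCODE 29, and 188 genes next to unnamed accessions were set aside (none described here).

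The comparison between groups used limma (version 3.58.1, R 4.3.3; lmFit, then eBayes with trend) on log2(value + 1), keeping genes with a value of at least 1 in 2 or more samples, in 1 fit over 10 libraries of 5 replicated groups, adjusted over all genes tested. The design took unfused fibroblast samples with human transcripts into this fit, so replicate 3 did not enter. The script was tested on simulated data. Genes were named as the 4 histones, up to 4 genes of smallest adjusted p per list, and the 5 genes most alike to each histone; results on some genes are not reported here. CENPA, H2AX, H1-10 and repeated genes follow from these lists. The histones and lists were chosen with earlier results of these data known. Sequences and coordinates are from GENCODE 29 (GRCh38). Alternatives covered pseudocount, filter, scaling, samples fitted, partly covered genes, a replicate block, trend, and each replicate left out.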

Additional observations from a re-analysis of the deposited data

How the results depend on the processing

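The day 1 directions of the 4 histones were the same under every alternative run. With 3 of 4 genes called at day 1, the count was between 0 and 3 when a replicate was left out, and 0 without co-culture replicate 1 or without co-culture replicate 2. When a replicate was left out, the day 1 log2 fold changes were between 2.09 and 2.17 for H3-3B, 1.32 and 1.63 for H2AZ1, and −3.17 and −2.19 for H2BC21; a group then holds 1 sample, assumed to vary like the others. H2BC21 was not called with a pseudocount of 0.1 (−3.44), no filter (−2.68), quantile normalization (−2.45), a fit of the 2 groups only, partly covered genes added, or the replicate block (−2.68 in each). At day 2, H2AZ1 was 1 call in the main test and 0 with no filter (0.96), upper quartile scaling (0.60), quantile normalization (0.89), partly covered genes added (0.96), the replicate block (0.96), no trend (0.96), or any replicate left out (0.79 to 1.14, count 0). The log2 fold change of H3-3A reversed to −0.085 at day 2 with upper quartile scaling, to −0.072 at day 2 without co-culture replicate 2 (range −0.072 to 0.62), and at day 3 to 0.061 without co-culture replicate 1 and 0.090 without heterokaryon day 3 replicate 2 (range −0.66 to 0.090). That of H2BC21 for day 3 against day 2 reversed to 0.17 without heterokaryon day 2 replicate 1 and to 0.39 without heterokaryon day 3 replicate 1 (range −0.84 to 0.39). With upper quartile scaling, the homokaryon over the unfused fibroblast library was 1.56 for H3-3A, 0.359 for H2AZ1 and 1.27 for H2BC21, beside 1.59, 0.364 and 1.29 as deposited. The cause of these changes was not tested.

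Genes called in all were 382 at day 1 (127 with no filter, 209 in a fit of the 2 groups, 42 to 342 with a replicate left out), 248 at day 2 (152, 538 and 30 to 43) and 106 at day 3 (48, 35 and 5 to 161; 70 with partly covered genes added). The replicate numbers of the labels did not pair the samples: over 10 pairs of groups, same-numbered deviations correlated between −0.111 and 0.0758. With the replicate block, 2 of 4 histones were called at day 1 and H2BC21 had an adjusted p of 0.0544. No test of these histones against unfused fibroblasts is reported here, since only fibroblast replicate 2 covers any of them. For the same reason there is no ratio to another fibroblast replicate. Depth is unknown, so no counting interval can be given.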
